A study of Mus musculus with 4 samples.

Results

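The 8 genes examined here encode ATP-binding cassette (ABC) pumps that move drugs and conjugated metabolites out of cells: Abcc1, Abcc2, Abcc3, Abcc4 and Abcc5 of the multidrug resistance-associated protein (MRP) family, Abcb1a and Abcb1b, the mouse genes for P-glycoprotein, and Abcg2, the breast cancer resistance protein. They were chosen by name, with earlier results of these data known, and all 8 were present among the 54446 genes of the expression table. RNA was sequenced from 4 libraries of mammary gland cells of C57BL/6 wild type mice, sorted by flow cytometry, embedded in growth factor-reduced Matrigel and grown in medium with epidermal growth factor and an insulin, transferrin and selenium supplement. The cultures were labelled basal cell or luminal cell and received either DMSO, the control, or 100 μM baicalin, a flavonoid glucuronide from the root of Scutellaria. With 1 library in each of the 4 groups there was no replicate of a group, so no test was made, and a difference between groups cannot be told apart from any other difference between single cultures. The labels give neither the age of the mice nor the number of mice behind a library.

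ABC exporters bind and hydrolyse ATP to push their substrates across the membrane. The MRP pumps carry organic anions, among them glutathione, glucuronide and sulfate conjugates, whereas P-glycoprotein carries mainly bulky hydrophobic compounds and the ABCG2 pump carries a wide set of drugs, conjugates and vitamins. In the lactating mammary gland Abcg2 is known for concentrating riboflavin and many drugs in milk.

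Levels are given in FPKM, fragments per kilobase of exon scaled to library depth, a level per length that allows genes to be compared. The depth of each library, recovered from the steps between low FPKM values, lay between 19356210 and 20649074 fragments. Ratios are plain FPKM ratios with an exact Clopper-Pearson 95% interval that covers counting error only. Changes across all genes are on the log2(FPKM + 1) scale, over the 17787 genes above 0 FPKM in all 4 libraries, and a change of more than 1 on that scale was counted as past the threshold. This scale understates the change of genes at low FPKM.

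The marker genes went against the cell labels. Summed over 10 basal markers, the level was 1997 FPKM with DMSO and 674 FPKM with baicalin in the libraries labelled basal, against 5214 and 6307 FPKM in those labelled luminal, and 9 of the 10 genes were higher under the luminal label with either treatment. Summed over 10 luminal markers, it was 4136 and 2546 FPKM under the basal label against 1308 and 1013 FPKM under the luminal label. Krt5, a basal keratin, stood at 128, 3.01, 2015 and 2415 FPKM in the order basal DMSO, basal baicalin, luminal DMSO and luminal baicalin, the order used below. The summed pericyte markers were 13.7 and 5.87 FPKM under the basal label and 69.2 and 80.7 FPKM under the luminal label, of which Mcam alone made up 12.9, 5.24, 67.9 and 79.2 FPKM, and none of the other 4 pericyte genes exceeded 1.09 FPKM in a library. The summed fibroblast markers lay between 2.66 and 15.9 FPKM and endothelial markers between 1.49 and 5.05 FPKM. The labels are therefore used only as names of libraries, and no direction between them is read as a difference between basal and luminal cells. Fewer cells of a type and less RNA per cell cannot be told apart in such bulk libraries.

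Abcc1, Abcc3 and Abcc4 were higher with baicalin under both labels, with counting intervals that excluded 1. Abcb1b was higher under the luminal label, Abcg2 was lower under the basal label, Abcc5 moved little, and Abcb1a and Abcc2 were at the limit of detection. In the libraries labelled basal, 3 of the 7 members that passed the filter were past the threshold upward and 0 downward, where 2.15% of all genes were past it upward and 3.33% downward. Under the luminal label 1 of 7 was past it upward and 0 downward, against 2.37% and 1.59% of all genes. The median log2 change of the 7 members was 0.10 under the basal label and 0.72 under the luminal label, beside medians of 0.009 and −0.021 over all genes tested. Under the basal label 4 were higher and 3 lower, where 9057 of all genes were higher and 8728 lower. Under the luminal label 7 were higher, where 8115 of all genes were higher and 9670 lower. Those 7 include Abcb1a and also Abcg2, whose luminal ratio had an interval that held 1 (0.954 to 1.36). Abcc2 did not pass the filter. Since the members were chosen with earlier results of these data known, these counts are descriptions only.

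**Figure D1:**
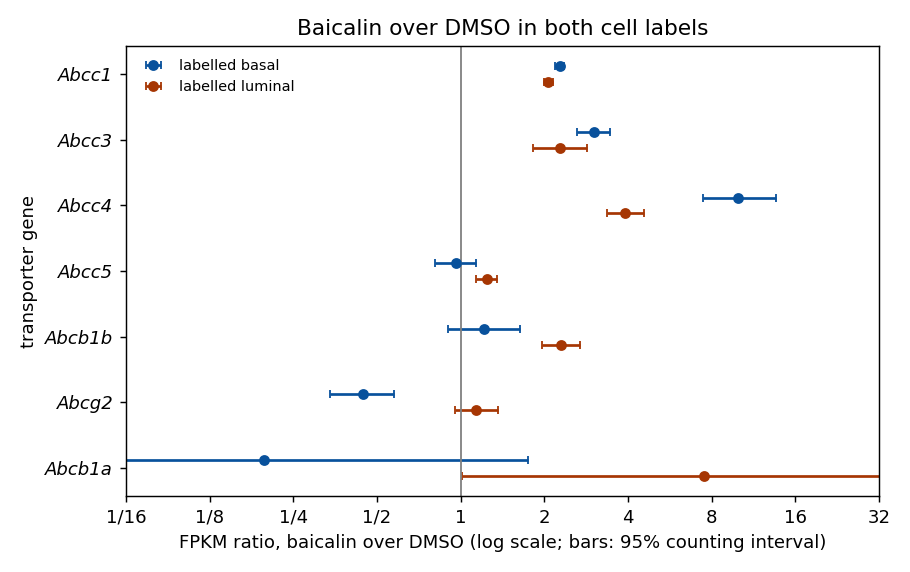
FPKM ratio of baicalin over DMSO (log scale) for 7 transporter genes in the libraries labelled basal (blue) and luminal (red); bars are 95% counting intervals, those of Abcb1a run past the axis, and the vertical line marks a ratio of 1. Abcc1, Abcc3 and Abcc4 lie to the right of 1 under both labels, and Abcg2 lies to the left, at 0.444, under the basal label.

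Abcc4, which encodes a pump for cyclic nucleotides, prostaglandins and conjugated steroids, showed the largest change of the members with baicalin under either label, leaving aside Abcb1a, whose ratios rest on 8 fragments or fewer. The gene (ENSMUSG00000032849) lies on the minus strand of chromosome 14, at 118482692 to 118706219 of GRCm38. The upstream promoter window of Abcc4, 250 bases before to 50 after the RefSeq start (GRCm38.p6, chr14:118706170-118706469, minus strand), is shown because the gene moved most, with the window of its downstream start (chr14:118676882-118677181, minus strand) and those of Abcb1b (chr5:8797897-8798196, plus strand) and Abcc5 (chr16:20426345-20426644, minus strand), genes that moved in 1 label or little. Capitals mark the antioxidant response element core TGACNNNGC, bound by NRF2, and the xenobiotic response element core GCGTG, bound by the aryl hydrocarbon receptor, each on either strand.
Abcc4 upstream start: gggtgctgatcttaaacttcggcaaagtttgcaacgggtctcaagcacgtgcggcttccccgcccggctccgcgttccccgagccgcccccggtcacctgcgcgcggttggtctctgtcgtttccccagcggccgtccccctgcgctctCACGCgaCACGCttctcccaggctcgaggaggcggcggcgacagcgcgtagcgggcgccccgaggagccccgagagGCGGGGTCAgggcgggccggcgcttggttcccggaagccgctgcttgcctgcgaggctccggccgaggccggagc
Abcc4 downstream start: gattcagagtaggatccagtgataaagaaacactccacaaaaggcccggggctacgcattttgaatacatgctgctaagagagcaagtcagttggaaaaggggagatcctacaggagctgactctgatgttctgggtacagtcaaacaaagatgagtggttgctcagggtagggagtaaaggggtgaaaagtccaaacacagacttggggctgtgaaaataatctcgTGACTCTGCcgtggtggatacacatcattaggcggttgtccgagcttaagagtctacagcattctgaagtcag
Abcb1b: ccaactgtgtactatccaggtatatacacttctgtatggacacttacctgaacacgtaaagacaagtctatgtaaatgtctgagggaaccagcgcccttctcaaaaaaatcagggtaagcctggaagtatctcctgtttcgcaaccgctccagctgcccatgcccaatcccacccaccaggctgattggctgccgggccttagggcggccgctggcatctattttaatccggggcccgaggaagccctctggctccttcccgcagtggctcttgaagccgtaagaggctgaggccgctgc
Abcc5: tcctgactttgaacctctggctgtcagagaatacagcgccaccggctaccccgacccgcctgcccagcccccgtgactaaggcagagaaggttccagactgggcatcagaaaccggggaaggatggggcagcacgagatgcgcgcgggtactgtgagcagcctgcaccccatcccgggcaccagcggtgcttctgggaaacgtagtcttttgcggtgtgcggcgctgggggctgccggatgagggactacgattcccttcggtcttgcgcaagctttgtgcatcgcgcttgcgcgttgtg

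The upstream Abcc4 window held 1 antioxidant core, GCGGGGTCA as read on the gene's strand, beginning at position −25 from the start, and 2 xenobiotic cores, CACGC on the gene's strand, at −101 and −94. The downstream window held 1 antioxidant core, TGACTCTGC, at position −23 from its own start. Of 32851 promoter windows of the same length, 12.4% held the antioxidant core and 32.4% the xenobiotic core, so matches of these short letters are common. Promoter entries were found for 6 of the 8 genes, in 9 windows, and not for Abcc1 and Abcc3. Abcc2 and Abcb1a held 1 antioxidant core each, 1 of the Abcg2 windows held 1 xenobiotic core, and none was found in the Abcb1b and Abcc5 windows. A match describes the letters and is no evidence of binding.

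Abcc4 stood at 0.394 FPKM (50 fragments) in basal DMSO, 3.92 (508) in basal baicalin, 1.77 (219) in luminal DMSO and 6.92 (913) in luminal baicalin. Both baicalin libraries were above both DMSO libraries, and no pair of neighbours in that order had overlapping counting intervals. The ratio of baicalin to DMSO was 9.94 (7.43 to 13.6) under the basal label and 3.91 (3.37 to 4.55) under the luminal label. On the log2 scale the changes were 1.82 and 1.52, higher than those of 99.6% and 99.2% of the genes tested. The luminal ratio was 0.393 times the basal one (0.278 to 0.548), a difference beyond counting error. With DMSO the luminal library was 4.49 times the basal one (3.29 to 6.24), and with baicalin 1.77 times (1.58 to 1.97).

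Abcc1 encodes MRP1, a broadly expressed pump for glutathione conjugates and leukotriene C4 that is usually placed on the basolateral membrane. The gene (ENSMUSG00000023088) lies on the plus strand of chromosome 16 at 14361558 to 14475737. It was the highest of the members in each library, at 13.9, 31.5, 12.7 and 26.3 FPKM, from 3715 to 9641 fragments. The ratio of baicalin to DMSO was 2.27 (2.19 to 2.35) under the basal label and 2.07 (1.99 to 2.15) under the luminal label. The luminal change of 0.99 on the log2 scale fell just short of the threshold that the basal change of 1.13 passed, and it passed when changes were centred on the median of all genes. The luminal ratio was 0.913 times the basal one (0.865 to 0.963). The order of levels ran from luminal DMSO and basal DMSO to luminal baicalin and basal baicalin, each step beyond its counting intervals.

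Abcc3 encodes MRP3, a basolateral pump with a preference for glucuronides. The gene (ENSMUSG00000020865) lies on the minus strand of chromosome 11 at 94343295 to 94392997. Its levels were 2.51, 7.56, 1.05 and 2.39 FPKM, from 284, 874, 116 and 281 fragments. The basal baicalin library was highest and the luminal DMSO library lowest, while the counting intervals of basal DMSO and luminal baicalin overlapped. The ratio of baicalin to DMSO was 3.01 (2.63 to 3.46) under the basal label and 2.27 (1.82 to 2.84) under the luminal label, or 1.29 and 0.72 on the log2 scale. Abcc3 was the member with the lowest luminal-to-basal ratio with baicalin, 0.316 (0.275 to 0.362), and at 0.419 (0.335 to 0.522) it was below 1 with DMSO too.

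Abcc5 encodes MRP5, a pump for cyclic nucleotides and nucleotide analogues. The gene (ENSMUSG00000022822) lies on the minus strand of chromosome 16 at 20331303 to 20426394. It stood at 1.29 and 1.24 FPKM in the libraries labelled basal and at 4.44 and 5.50 FPKM in those labelled luminal, with 269 to 1214 fragments. The main contrast in this gene was between labels, with luminal over basal ratios of 3.43 (3.00 to 3.94) with DMSO and 4.43 (3.88 to 5.08) with baicalin. The baicalin ratio was 0.961 (0.809 to 1.14) under the basal label, an interval that holds 1, and 1.24 (1.14 to 1.35) under the luminal label.

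Abcc2 encodes MRP2, known from the bile canaliculus of the liver and other apical membranes. The gene (ENSMUSG00000025194) lies on the plus strand of chromosome 19 at 43782192 to 43840740. It had 0 fragments in both libraries labelled basal, which allows levels of up to 0.0177 and 0.0173 FPKM at a limit of 3 fragments, and 1 fragment in each library labelled luminal. Abcc2 was thus not detectable beyond single fragments at this depth, and no ratio is given.

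**Figure D2:**
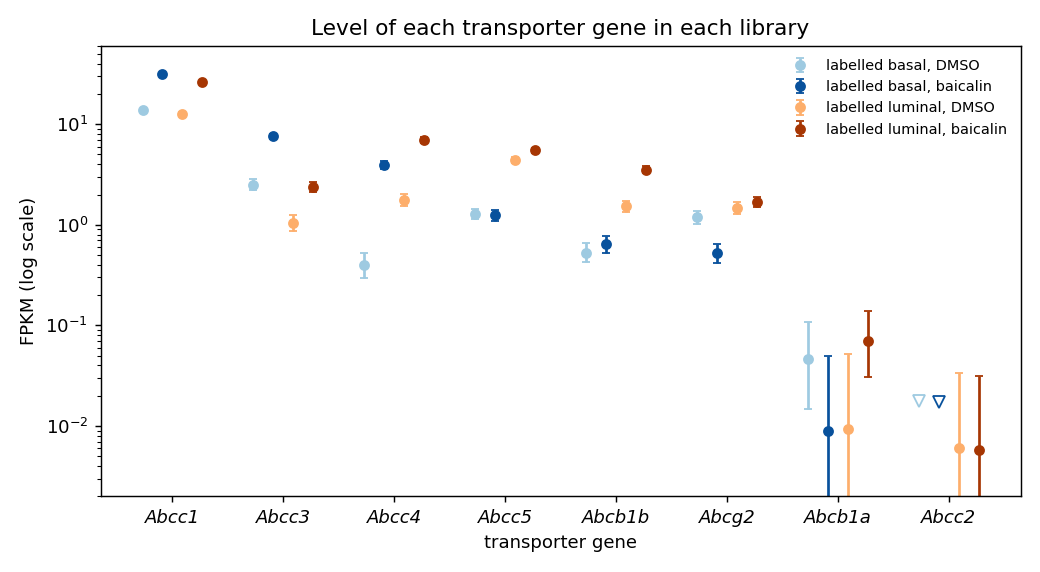
FPKM (log scale) of each transporter gene in the 4 libraries, with exact 95% Poisson counting intervals as bars and open triangles for libraries with 0 fragments, drawn at the level of 3 fragments; some lower bars of Abcc2 and Abcb1a run past the axis. Abcc1 is highest in each library, between 12.7 and 31.5 FPKM, and Abcc2 and Abcb1a lie lowest.

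Of the P-glycoprotein genes, Abcb1b carried most of the signal. Abcb1b (ENSMUSG00000028970, plus strand of chromosome 5 at 8798147 to 8866315) stood at 0.529, 0.642, 1.53 and 3.52 FPKM, from 84, 104, 237 and 581 fragments. The luminal baicalin library was highest, and the counting intervals of the libraries labelled basal overlapped. Its baicalin ratio was 1.21 (0.9 to 1.64) under the basal label and 2.3 (1.97 to 2.68) under the luminal label, and the luminal ratio was 1.89 times the basal one (1.35 to 2.66). The luminal-to-basal ratio was 2.89 (2.25 to 3.76) with DMSO and 5.49 (4.45 to 6.83) with baicalin.

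Abcb1a (ENSMUSG00000040584, plus strand of chromosome 5 at 8660077 to 8748575) had 5, 1, 1 and 8 fragments, or 0.046, 0.009, 0.0094 and 0.0707 FPKM. Its intervals were wide, with baicalin ratios of 0.196 (0.00414 to 1.75) under the basal label and 7.5 (1.01 to 333) under the luminal label. The pair share sequence: 488 distinct 100-base stretches occur in both, of 5404 in Abcb1a transcripts and 8083 in those of Abcb1b, so the split of fragments between them is uncertain. With matches to any other gene counted, 13.4% of the Abcb1a stretches and 6.61% of the Abcb1b stretches were shared. None of the other 6 genes shared a 100-base stretch with another gene. Genes on the opposite strand overlap their exons: Gm42686, of a type still to be verified by experiment, shares 553 bases with Abcb1a and was at 0 FPKM in all 4 libraries, and Gm5106, an antisense gene, shares 143 bases with Abcb1b and reached 0.037 FPKM.

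Abcg2 was the only member whose baicalin ratio lay below 1 with an interval that excluded it. The gene (ENSMUSG00000029802) lies on the plus strand of chromosome 6 at 58584523 to 58695676. It stood at 1.19, 0.526, 1.48 and 1.68 FPKM, from 192, 87, 233 and 283 fragments. The basal baicalin library was apart from the other 3, whose neighbouring intervals overlapped. The ratio was 0.444 (0.34 to 0.574) under the basal label, 2.25-fold lower, and 1.14 (0.954 to 1.36) under the luminal label. The luminal ratio was 2.56 times the basal one (1.87 to 3.54). On the log2(FPKM + 1) scale the basal change was −0.52, short of the threshold, but with a pseudocount of 0.1 FPKM it was −1.04. The same library was lowest for basal markers, at 674 FPKM in sum, and highest for the immune marker list, at 53.7 FPKM against 16.7, 5.45 and 16.4 FPKM in the others. Most of that was Cd68, at 51.5 FPKM, while Ptprc, which defines leukocytes, was at 0 there, as were 5 of the 8 listed genes with it counted. From basal DMSO to basal baicalin the luminal marker sum fell too, from 4136 to 2546 FPKM. The fibroblast sum went from 7.06 to 2.66 FPKM, the pericyte sum from 13.7 to 5.87 and the endothelial sum from 1.49 to 2.07. The part of cell composition in the Abcg2 value was not tested.

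Summed over the 8 genes, the level was 19.9, 45.4, 23 and 46.4 FPKM, that is 2.29-fold and 2.02-fold higher with baicalin under the basal and luminal labels. Abcc1 alone made up 70, 69.4, 55.3 and 56.7% of the sums. The share of Abcc4 was 1.99% in basal DMSO and 8.64% in basal baicalin, and 7.7% and 14.9% in the luminal libraries. The share of Abcg2 was 5.97% and 1.16% under the basal label, and 6.42% and 3.62% under the luminal label. The sums have no interval and no replicate.

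**Figure D3:**
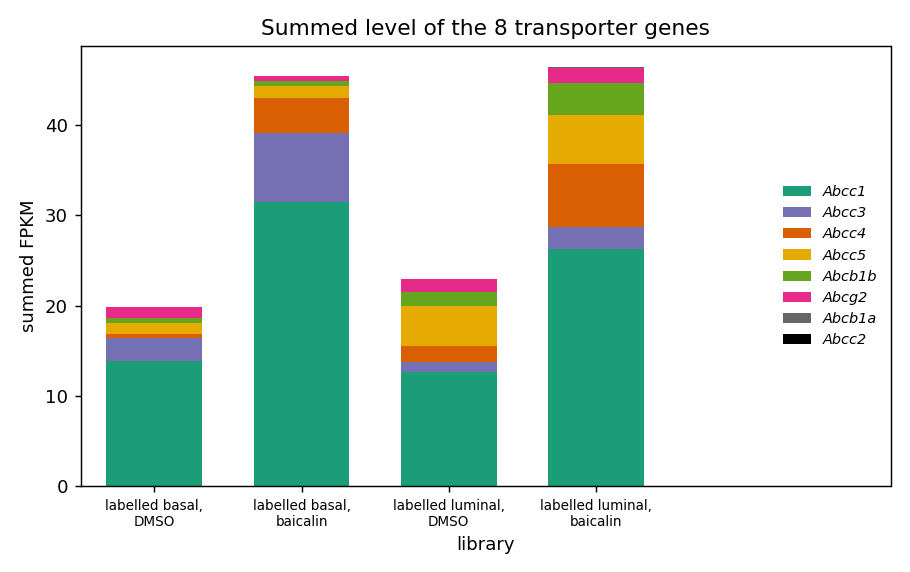
Summed FPKM of the 8 transporter genes in each library, with each gene as a segment. The sums are 19.9 and 45.4 FPKM under the basal label and 23 and 46.4 FPKM under the luminal label, and Abcc1 is the largest segment in each.

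Between the labels, 1 of 7 members was past the threshold upward in the luminal library with DMSO and 0 downward, against 4.71% and 3.86% of all genes. With baicalin 2 were past it upward and 1 downward, against 5.24% and 2.99%. Those past it were Abcc5 with both treatments, at 1.25 and 1.54 on the log2 scale, and with baicalin Abcb1b at 1.46 and Abcc3 at −1.34. The treatment and label comparisons share libraries, so their values are not independent.

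**Figure D4:**
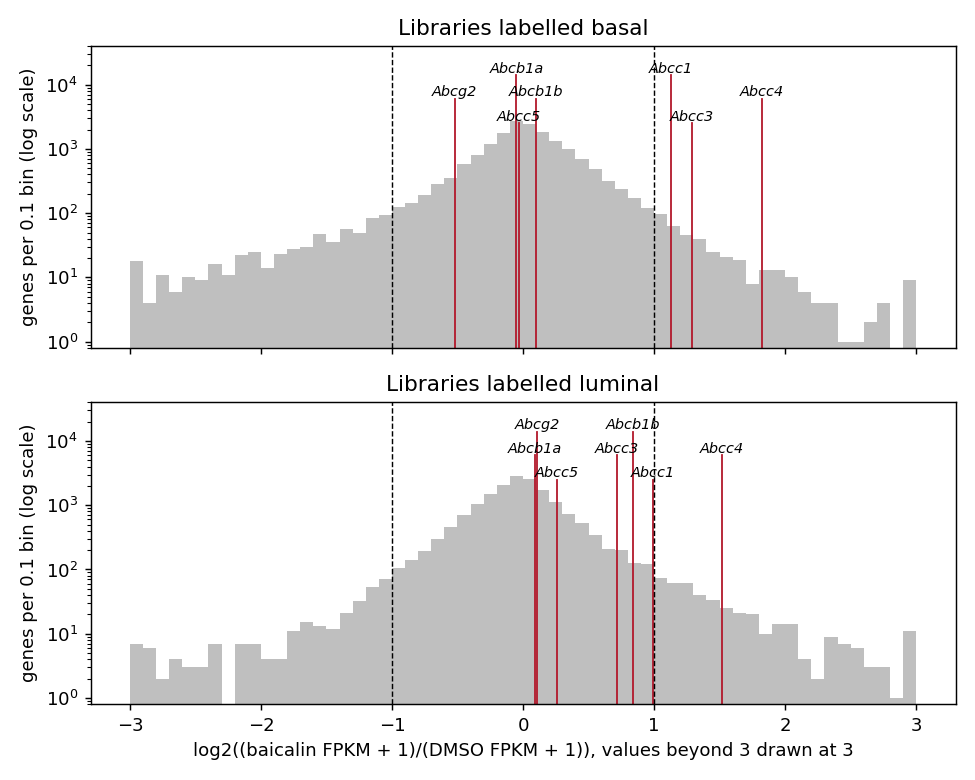
Distribution of log2(FPKM + 1) changes with baicalin over the 17787 genes tested, under the basal label (top) and the luminal label (bottom), as genes per bin on a log axis. Values past the plotted range are gathered in the end bins, red lines mark the transporter genes and dashed lines the threshold; Abcc4 lies farthest right of them, at 1.82 and 1.52.

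Other ABC genes were listed for comparison. Of 45 further ABC genes listed, 29 passed the filter, and 1 was past the threshold upward and 0 downward under each label, with medians of 0.01 and 0.02. Over all genes, 2.15% were past it upward and 3.33% downward under the basal label, and 2.37% and 1.59% under the luminal label. The counts for these ABC genes are near those shares. Under the basal label that gene was Abca8b, at 0.0814 FPKM with DMSO and 2.87 FPKM with baicalin. Under the luminal label it was Abca12, a lipid transporter of skin, at 2.4 and 11.1 FPKM (ratio 4.64, 4.27 to 5.04). Each was higher under the other label too, short of the threshold at low FPKM. Abca12 went from 0.0748 to 0.689 FPKM under the basal label (ratio 9.21, 5.92 to 15). Abca8b went from 0.48 to 1.87 FPKM under the luminal label (ratio 3.9, 2.99 to 5.15). Among the listed ABCC and ABCB genes outside the 8 members, 4 and 7 passed the filter, and 0 were past the threshold under either label. Abcc9, Abcc10 and Tap2, among the highest of them in level, changed by between −0.15 and 0.48 on the log2 scale. Abcf2 and Abce1, the highest of the ABCD, ABCE and ABCF genes, changed by −0.27 and −0.10 under the basal label and by 0.07 and 0.19 under the luminal label, and Abcg4 by −0.06 and 0.08.

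Genes that supply conjugates or control the transporters were listed too. Of 6 genes of glutathione supply, 3 were past the threshold upward under the basal label and 2 under the luminal label, with 0 downward. Over all genes, 2.15% and 2.37% were past it upward and 3.33% and 1.59% downward. Slc7a11, the cystine carrier, stood at 2.73 FPKM with DMSO and 76.4 FPKM with baicalin under the basal label, and at 2.27 and 35.6 FPKM under the luminal label. Gclc, the catalytic subunit of the first enzyme of glutathione synthesis, was at 28.8 and 70.4 FPKM and at 56.8 and 154 FPKM. Gclm, its modifier subunit, changed by 1.88 on the log2 scale under the basal label and by 0.37, short of the threshold, under the luminal label. Of 24 conjugating enzymes only 5 passed the filter, and 1, Sult2b1, was past the threshold, under the luminal label at 1.08. At low level, Ugt1a7c went from 6 to 49 fragments under the luminal label (ratio 7.66, 3.28 to 21.9), or 0.54 on the log2 scale. Of those that failed the filter, Ugt1a1 (ratio 8.44, 2.02 to 75) and Ugt1a6b (3.28, 1.28 to 9.94) were higher there. Sult5a1 was lower (0.0852, 0.00971 to 0.347).

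Among 14 NRF2 target enzymes, 9 were past the threshold upward under the basal label and 7 under the luminal label, with 0 downward and medians of 1.68 and 1.0. Over all genes, 2.15% and 2.37% were past it upward and 3.33% and 1.59% downward. Of the 5 aryl hydrocarbon receptor targets tested, 5 were past it upward under each label. The lists were written with earlier results of these data known, so these counts are descriptions only. Nqo1, a quinone reductase, is in both lists and counted in each, at 2.02 and 1.70 on the log2 scale. The NRF2 targets with the largest changes on that scale were the glutathione transferases Gsta1, at 5.23 and 3.87, and Gsta4, at 3.15 and 3.28, the carbonyl reductase Cbr3, at 3.20 and 1.15, and Hmox1, which breaks down heme, at 2.50 and 1.75. Gsta1 had 5 fragments in basal DMSO and 1 in luminal DMSO and has near-identical copies, so its value is uncertain. Under the luminal label 13 of the 14 NRF2 targets were higher and 1 lower. The lower one was Gstm1, at 98.5 FPKM with DMSO and 55.5 FPKM with baicalin, or −0.82 on the log2 scale. The aryl hydrocarbon receptor targets with the largest changes besides Nqo1 were Aldh3a1, at 1.93 and 3.03, Cyp1a1, at 1.29 and 2.37, and Cyp1b1, at 1.57 and 1.87. Of 14 regulators, 6 membrane anchors and 3 genes listed as other efflux carriers, 0 were past the threshold with baicalin under either label. That is near the shares over all genes. Of the regulators, 13 were higher and 1 lower under the basal label, and 9 and 5 under the luminal label. Ahrr, listed among them, was at 0.203 and 0.809 FPKM under the basal label (ratio 3.99, 2.78 to 5.85). Under the luminal label it was at 0.153 and 1.21 FPKM (ratio 7.9, 5.33 to 12.1). At these low levels its log2 changes were 0.59 and 0.94. Nfe2l2, which encodes NRF2, was at 53.6 and 74.5 FPKM under the basal label and 48.8 and 56.8 FPKM under the luminal label. Hif1a, a hypoxia-responsive factor, changed by 0.55 and 0.73 on the log2 scale. The anchors Msn and Ezr changed by 0.02 and 0.70 and by 0.06 and −0.12. Mvp, listed with the efflux carriers, encodes the major vault protein and not a membrane carrier, and changed by −0.05 and 0.56. Of 11 uptake carriers tested, 2 were past the threshold upward under the basal label and 1 under the luminal label, and Slc22a4 was past it in both, at 2.02 and 1.18.

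Profiles most like those of the members were sought by the distance between centred log2(FPKM + 1) levels over the 4 libraries. Only protein-coding genes of at least 1 FPKM in every library were compared. Abcc4 had few neighbours: of 9922 genes, 2 lay within 0.5, namely Cpne2 at 0.226 and Gclc at 0.447. Abcc4 itself, at 0.394 FPKM in basal DMSO, was below that limit, so genes that start as low were not searched. Near profiles on this scale can differ in plain ratio. The baicalin ratios of Gclc were 2.44 and 2.72 under the basal and luminal labels, against 9.94 and 3.91 for Abcc4. For Abcc1 the nearest was Hebp1, at 0.108, with 117 genes within 0.5, and for Abcc3 it was Gtpbp2, at 0.0616, with 49. Abcg2 had 1132 genes within 0.5, but its levels were low, where this scale understates changes. With 4 libraries these distances are descriptions only.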

How the data were processed

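Libraries were made from oligo(dT)-enriched RNA with a stranded kit. According to the study's methods, the authors mapped reads with HISAT2 to GRCm38 and deposited FPKM values from featureCounts; the submitters' processing notes also name Bowtie 0.12.2 and mm8, with no role given. The strand setting was not given in the sources used here.

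From the deposited FPKM, whole fragments were recovered with GENCODE exon lengths for 54409 of 54446 genes. Between 98.9 and 99.1% of values of low genes fell within 0.1 of a whole number of fragments. The largest deviation among the 8 members was 0.12, for Abcc1. Changes were log2((FPKM + 1)/(FPKM + 1)) on genes above 0 in all 4 libraries, with a threshold of 1. Ratios carry exact Clopper-Pearson 95% intervals and ratios of ratios exact conditional ones, and levels carry exact Poisson intervals, all for counting error only. With 1 library per group no test was made. A fit of treatment with label as a block, which would leave 1 residual degree of freedom, was not run.

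The members and gene lists were chosen with earlier results of these data known. Of each list the text names the genes past the threshold with baicalin, at most the 4 with the largest change, or the 1 or 2 highest in level where none was; some of these are not reported here. Alternatives were other pseudocounts, filters, scalings and a lower threshold. Scripts were tested on simulated data and run with Python 3.11.15, numpy 2.4.6, pandas 2.3.3 and scipy 1.17.1. Promoter windows came from RefSeq (GRCm38.p6).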

Additional observations from a re-analysis of the deposited data

Results flagged for a closer look

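The baicalin ratio lay on opposite sides of 1 under the 2 labels for 3 members, and these differences were not tested, since each group has 1 library. The basal ratios of Abcc5 and Abcb1a and the luminal ratio of Abcg2 had intervals that held 1. No member thus went in opposite directions beyond counting error. For Abcg2 the luminal ratio was 2.56 times the basal one (1.87 to 3.54), and for Abcc5 it was 1.29 times (1.06 to 1.57). For Abcb1a it was 24.9 times (1.34 to 2026), from 8 fragments or fewer in a library. Sult2b1, a sulfotransferase, was lower with baicalin under the basal label (7.68 to 4.97 FPKM) and higher under the luminal label (2.07 to 5.48 FPKM), a difference of 1.62 between the log2 changes.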

How the results depend on the processing

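No member changed direction under any alternative run, and no scaling moved the median of all genes by more than 0.1 on the log2 scale. Counts of members past the threshold changed most often with the pseudocount. Under the basal label the members lower with baicalin numbered 1 with a pseudocount of 0.1 and 2 with none, against 0, where 7.32 and 12.4% of all genes were lower, against 3.33%, and the members' median was 0.61 with genes of at least 1 FPKM. Under the luminal label the members higher numbered 4 with a pseudocount of 0.1, 5 with none, 3 as TPM, 2 when centred and 4 at 1.5-fold, against 1, where 5.91, 9.88, 4.04, 2.54 and 6.3% of all genes were higher, against 2.37%, and the median was 1.12 with no pseudocount. Between labels with DMSO, 3 were higher with a pseudocount of 0.1, with none, as TPM and at 1.5-fold, against 1 (11.4, 17.7, 7.34 and 11.5% of all genes, against 4.71%), and 1, 2, 1 and 1 were lower, against 0 (8.25, 10.9, 7.19 and 9.95%, against 3.86%). Between labels with baicalin, 4 were higher with no pseudocount and at 1.5-fold, against 2 (15.1 and 10.7% of all genes, against 5.24%), and the median was 1.68 with no pseudocount and 0.39 with no filter. Over all genes, of which 13797 to 54446 entered, those higher with baicalin numbered between 378 and 1868 under the basal label and between 421 and 1976 under the luminal label, and those lower between 592 and 2341 and between 269 and 2175. Between labels those higher numbered 823 to 3392 with DMSO and 932 to 2899 with baicalin, and those lower 686 to 2099 and 487 to 2402. The cause of other shifts was not tested. No replicate numbers pair the libraries, and a fit with label as a block was not run. Abcc2 and Abcb1a, at 8 fragments or fewer, are limited by depth.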

Other observations

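Abcg1, a cholesterol exporter, stood at 16.7 FPKM with DMSO and 18.8 FPKM with baicalin under the basal label, and at 4.38 and 9.58 FPKM under the luminal label. Slc22a18, an organic cation carrier, stood at 1.33 and 7.89 FPKM under the basal label and at 1.06 and 2.45 FPKM under the luminal label.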
